A study of Mus musculus with 3 samples.

Results

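Cycling chondrocytes of the growing mouse long bone were described as 109 cells of 15628 in 3 droplet libraries of single cells. Members were chosen by measured UMI counts. A cell was a member when it held at least 5 unique molecular identifiers (UMIs) of Top2a, Mki67, Birc5, Cdk1 and Ccnb2 together, at least 2 of Acan, at least 3 of Matn3 and Col9a1 together, and at most 1 of the endothelial genes Pecam1 and Cdh5. The comparison cells were 1591 chondrocytes of the same gate with fewer than 5 UMIs of the 5 cycling genes, called non-cycling here. All mice were 3 weeks old, untreated and labelled as C57BL/6, and cells were released from long bone with collagenase. In the metaphyseal libraries (replicates 1 and 2) the metaphysis of male wild-type mice (C57BL/6J in the methods) was dissected and haematopoietic lineage, CD45+ and CD117+ cells were depleted. In the Pdgfra-GFP library, GFP+ cells of the metaphysis and epiphysis of femur and tibia of male mice heterozygous for a knock-in of nuclear H2B-GFP at Pdgfra were sorted. The libraries therefore differed in tissue, genotype and selection at once, and these cannot be told apart. The labels do not say whether the metaphyseal libraries came from separate mice, so p-values measure only the spread between these libraries, which may be technical. The libraries held 25243314, 22082735 and 91747759 UMIs, and the kept cells numbered 2382, 2004 and 11242.

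Growth plate chondrocytes pass through zones. Slowly dividing cells of the resting zone feed columns of flat, dividing cells, which leave the cell cycle, secrete Indian hedgehog as prehypertrophic cells and then enlarge as hypertrophic cells marked by type X collagen. Parathyroid hormone related protein from the resting zone keeps column cells dividing, and articular chondrocytes at the joint surface form a separate population that secretes lubricin, the product of Prg4. In a dividing cell, genes for DNA replication are switched on by E2F factors before S phase, and genes for mitosis are switched on later, in G2, through promoter elements known as CHR and CCAAT boxes.

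The 5 cycling genes that chose the cells encode topoisomerase II alpha (Top2a), the proliferation antigen Ki-67 (Mki67), survivin (Birc5), the mitotic kinase (Cdk1) and cyclin B2 (Ccnb2). Their promoters are shown because all 5 genes are textbook members of the late cell-cycle programme, and the letters of the G2 elements can be looked for in them. Each stretch covers 200 bases before to 20 bases after the RefSeq start, in the GRCm38.p6 build (mm10) and 5′ to 3′ on the gene's strand. The windows lie at chr11:99024170-99024389 (minus strand) for Top2a, chr7:135716360-135716579 (minus) for Mki67, chr11:117849037-117849256 (plus) for Birc5, chr10:69352893-69353112 (minus) for Cdk1 and chr9:70421535-70421754 (minus) for Ccnb2. Capitals mark the CHR letters TTTGAA and the CCAAT letters CCAAT, each on either strand (TTCAAA and ATTGG).
Top2a: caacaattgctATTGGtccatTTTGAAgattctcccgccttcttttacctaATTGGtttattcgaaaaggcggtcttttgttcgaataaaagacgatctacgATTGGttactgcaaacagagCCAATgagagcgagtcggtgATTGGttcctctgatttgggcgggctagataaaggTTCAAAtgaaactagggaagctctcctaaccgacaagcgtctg
Mki67: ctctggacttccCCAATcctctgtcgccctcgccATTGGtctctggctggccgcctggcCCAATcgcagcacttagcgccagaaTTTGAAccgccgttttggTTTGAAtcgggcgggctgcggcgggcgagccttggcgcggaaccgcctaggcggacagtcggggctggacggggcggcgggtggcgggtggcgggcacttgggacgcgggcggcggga
Birc5: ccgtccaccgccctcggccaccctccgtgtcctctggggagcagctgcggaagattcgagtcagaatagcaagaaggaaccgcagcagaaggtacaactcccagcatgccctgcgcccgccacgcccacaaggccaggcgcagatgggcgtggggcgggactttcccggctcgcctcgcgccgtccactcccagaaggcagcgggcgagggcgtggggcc
Cdk1: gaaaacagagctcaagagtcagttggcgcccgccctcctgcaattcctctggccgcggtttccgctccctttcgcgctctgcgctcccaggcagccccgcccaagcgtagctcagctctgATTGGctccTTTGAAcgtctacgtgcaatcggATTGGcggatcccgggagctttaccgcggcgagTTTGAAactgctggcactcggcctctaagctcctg
Ccnb2: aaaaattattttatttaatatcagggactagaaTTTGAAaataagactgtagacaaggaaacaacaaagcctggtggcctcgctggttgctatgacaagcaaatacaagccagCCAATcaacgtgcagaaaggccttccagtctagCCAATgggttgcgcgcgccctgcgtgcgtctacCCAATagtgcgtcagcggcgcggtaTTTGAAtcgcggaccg

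Top2a, Mki67, Cdk1 and Ccnb2 each held 2 CHR matches in the stretch shown and between 2 and 5 CCAAT matches. Birc5 held neither in this window. Over the 300-base windows of 27025 genes (250 before to 50 after the start), 20.2% held the CHR letters, 41.1% the CCAAT letters and 5.29% the E2F letters TTCCCGC or GCGGGAA. Of the 50 genes of a mitosis list, 42 had a promoter in the RefSeq table, and of these 30 (71.4%) held the CHR letters, 31 (73.8%) the CCAAT letters and 1 the E2F letters. Of the 40 genes of a DNA replication list, 32 had a promoter, and of these 4 (12.5%) held the CHR letters, 22 (68.8%) the CCAAT letters and 15 (46.9%) the E2F letters. A match is a description of letters and not a bound site.

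Because they chose the cells, the levels of the 5 genes are given without a test. Levels are UMI counts scaled to the total of the summed cells of a library (CPM), and exact Poisson 95% intervals cover counting error only. In cycling chondrocytes of metaphyseal replicate 1, metaphyseal replicate 2 and the Pdgfra-GFP library, Top2a (ENSMUSG00000020914, chromosome 11, 98992943 to 99024189) stood at 47.4, 126.8 and 442.0 CPM. Mki67 stood at 201.5, 114.1 and 213.2 CPM, and Birc5 at 450.4, 139.5 and 526.8 CPM. Cdk1 stood at 130.4, 25.4 and 575.9 CPM, and Ccnb2 at 462.2, 139.5 and 245.9 CPM. Single cells varied widely. The sum of the 5 genes had a median of 29.5, 10 and 22 UMIs in the 3 libraries and reached 79.

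The split between the groups was steep. Of all gated chondrocytes, 1452 held 0 UMIs of the 5 genes and 113 held 1. Just outside the threshold 9 cells held 3 and 1 cell held 4, and just inside it 5 cells held 5 and 5 cells held 6. The gate required its cartilage genes on both sides. Acan, encoding aggrecan, stood at 4136, 4108 and 2753 CPM in cycling and at 3946, 3889 and 2650 CPM in non-cycling chondrocytes. Matn3, encoding matrilin 3, stood at 3176, 3791 and 3306 CPM in cycling and at 2300, 2186 and 2254 CPM in non-cycling chondrocytes. The endothelial gate genes Pecam1 and Cdh5 summed to 0, 1 and 1 UMIs in the cycling cells.

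The members were spread unevenly over the libraries, with 4, 4 and 101 cells. The cycling sums therefore held 84378, 78874 and 1285020 UMIs, against 532936, 628974 and 13498057 in the non-cycling sums. A zero in a metaphyseal cycling sum is a weak statement, since the limit that a count of 0 allows (3 counts) was 35.6 and 38.0 CPM there. Cycling cells were also deeper, with medians of 19534.5, 20218 and 12590 UMIs against 11772.5, 20005 and 8561 UMIs. Barcodes shared between libraries numbered 0 between the metaphyseal libraries, and 9 and 10 between these and the Pdgfra-GFP library.

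A few members went against the label. In metaphyseal replicate 1, 1 of the 4 members held 49 UMIs of a cartilage matrix list and 396 of an osteoblast list, with 12 UMIs of Col2a1 and 0 of Matn3. The other 3 held 1922 to 3354 cartilage and 7 to 25 osteoblast UMIs. In the Pdgfra-GFP library 3 of 101 members held more osteoblast than cartilage UMIs, against 67 of 1523 non-cycling chondrocytes. Of the Pdgfra-GFP members, 1 held 4516 UMIs of a haematopoietic list and 1 held 7263 UMIs of an erythroid list, where the medians were 1 and 6. Scrublet, a doublet caller, marked 3 Pdgfra-GFP members and no metaphyseal member. It marked 1.05%, 0.599% and 1.45% of all kept cells, below the 1.906%, 1.603% and 8.994% of doublets it was set to expect, so doublets may remain. Doublets were kept, and the counts below were also made without each of these sets of cells.

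The share of cycling cells among chondrocytes was measured in each library. The share was 10.0% of 40 chondrocytes in metaphyseal replicate 1 (exact binomial 95% interval 2.79 to 23.7%), 11.1% of 36 in metaphyseal replicate 2 (3.11 to 26.1%) and 6.22% of 1624 in the Pdgfra-GFP library (5.09 to 7.51%). The intervals overlap. In gated endothelial cells the shares were 6.94%, 6.85% and 6.64%, and in gated stromal cells 2.44%, 1.99% and 2.71%. The median depth of non-cycling cells in the Pdgfra-GFP library was 8561 UMIs in chondrocytes and 4186 in stromal cells. Cells of at least 5000 UMIs were then thinned to 5000 before gating, and shallower cells were left out. In the Pdgfra-GFP library 3963 of 6361 non-cycling stromal cells and 259 of 1523 non-cycling chondrocytes lay under 5000 UMIs. Among the deeper cells the chondrocyte shares were 8.11%, 3.03% and 6.10% of 37, 33 and 1311 gated chondrocytes. The stromal shares were then 1.77%, 0.781% and 4.93% of 566, 512 and 2109 gated cells, and the endothelial shares 7.02%, 6.54% and 5.22%. In the Pdgfra-GFP library the intervals were 4.87 to 7.54% in chondrocytes and 4.05 to 5.94% in stromal cells. These are intervals over the cells of 1 library, so they cannot decide whether the lineages differ. The thinned shares describe the deeper cells only.

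**Figure D1:**
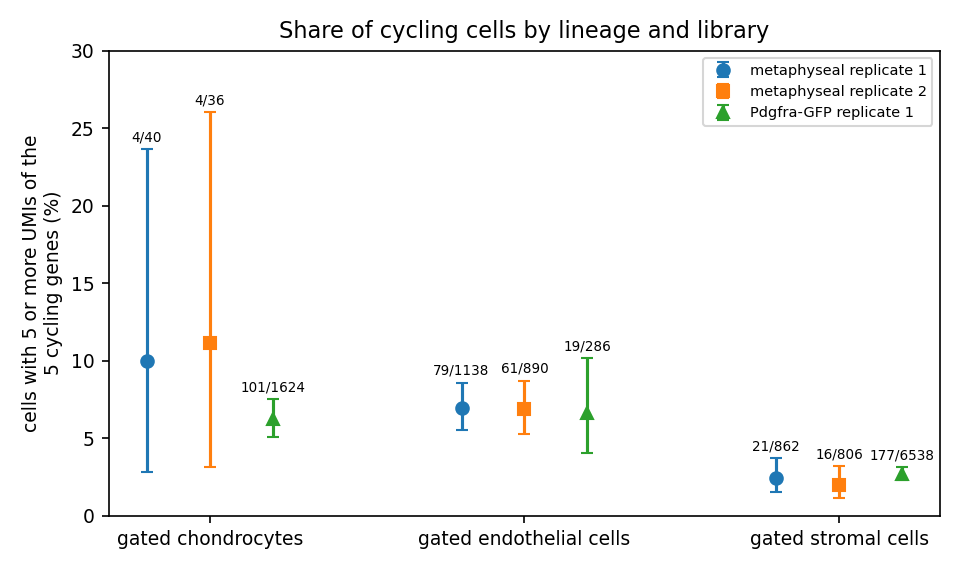
Share of gated cells with 5 or more UMIs of the 5 cycling genes (vertical axis, %) in 3 lineages and 3 libraries. Points are shares, bars exact binomial 95% intervals, and labels cycling cells over all gated cells. The metaphyseal chondrocyte intervals are wide (4 of 40 and 4 of 36 cells), and the Pdgfra-GFP share is 6.22%.

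The members differed in how many replication genes they held. Each cell was thinned to 5000 UMIs and its UMIs of the 40 replication genes and the 50 mitosis genes were counted, with the 95th percentile of the non-cycling chondrocytes of the same library as the limit. Of 98 Pdgfra-GFP members deep enough, 64 lay above the limit for both lists, 34 above it for mitosis alone and 0 below both. In metaphyseal replicate 1, 1 member lay above both limits and 3 above mitosis alone. In metaphyseal replicate 2, 1 lay above both, 2 above mitosis alone and 1 above neither. The limit fixes the share of non-cycling cells above it and the gate chose members by genes of the later cycle, so these counts only describe the members.

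**Figure D2:**
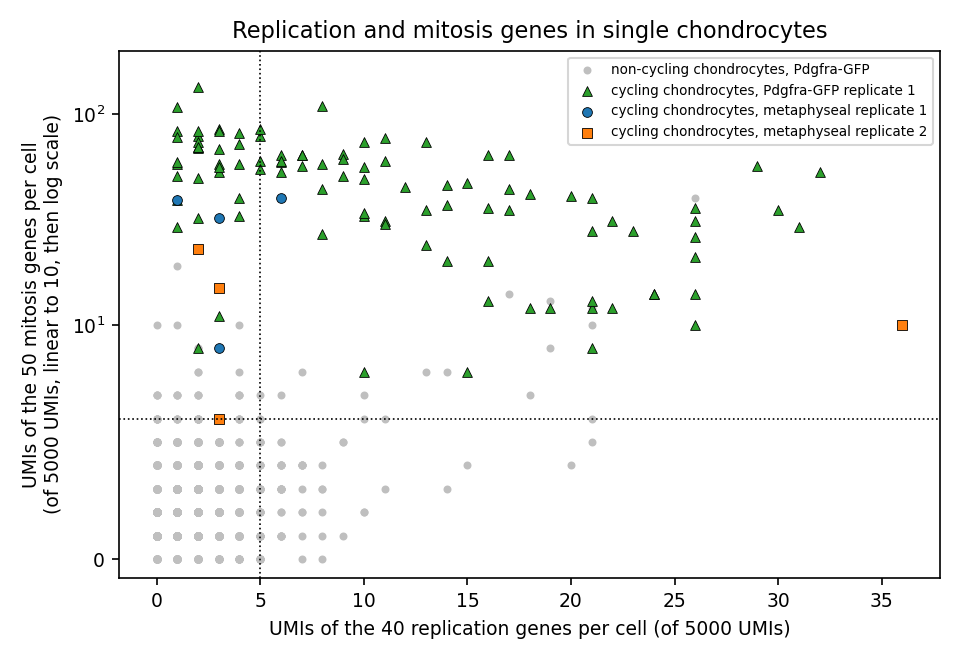
UMIs of 40 replication genes (horizontal axis) and 50 mitosis genes (vertical axis, linear to 10 and then logarithmic) per chondrocyte thinned to 5000 UMIs. Coloured symbols are the cycling chondrocytes of the 3 libraries, grey points the non-cycling chondrocytes of the Pdgfra-GFP library, and dotted lines the 95th percentiles of the latter (5 and 6 UMIs). Of the Pdgfra-GFP members 64 lie right of and above both lines and 34 above the mitosis line alone.

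The Pdgfra-GFP members above both limits and above the mitosis limit alone also differed in genes of known timing. These are values of 1 library, with no replicate check and no test, and the lists partly fix them. Hist1h2ap, a replication-dependent histone, stood at 931.2 CPM in the first set and 199.9 CPM in the second. Ccne2, encoding cyclin E2 of the G1 to S transition, stood at 52.9 CPM and was at 0 in the second set, and Mcm5, a helicase subunit, stood at 85.4 and 9.09 CPM. Genes of the end of the cycle had the opposite order. Ccnb1, encoding cyclin B1, stood at 71.0 and 399.8 CPM, and Cdc20, the activator of the anaphase-promoting complex, at 194.9 and 586.1 CPM. Cenpa, encoding the centromeric histone, stood at 210.5 and 829.2 CPM. Among cartilage genes, Col2a1 stood at 49780 and 51580 CPM, Sox9 at 350.1 and 388.5 CPM and Comp at 3507 and 4051 CPM. Of the zone genes, Sfrp5 stood at 66.2 and 22.7 CPM, and Pthlh at 12.03 and 20.45 CPM and Matn1 at 45.7 and 34.1 CPM had overlapping counting intervals. Col10a1, Ihh and Prg4 are not compared between the sets, because of the Pdgfra-GFP members 1 cell held 136 of 170 Prg4 UMIs, 1 held 8 of 15 Ihh and 46 of 109 Col10a1 UMIs, and another held 56 of the Col10a1 UMIs.

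The difference between cycling and non-cycling chondrocytes was then tested across all genes on the summed counts of the 3 libraries with edgeR's quasi-likelihood test, together with the stromal and endothelial sums. The spread was estimated over all 3 lineages together (6 residual degrees of freedom), so p-values rest in part on stromal and endothelial cells. Of 10767 genes, 500 were higher (4.64%) and 407 lower (3.78%) in cycling chondrocytes at an adjusted p under 0.05. These shares are the background for each list count of this fit below. Fold changes are log2 differences, cycling minus non-cycling, and the median over all genes was -0.18. The counts rest on the Pdgfra-GFP library. Without it 91 genes were higher and 152 lower, only 187 of the 907 passed again in the same direction and 87 of 850 tested had the other direction. Without metaphyseal replicate 1 or 2, 840 and 955 genes passed, and 721 and 778 of the 907 did so again. With chondrocyte sums only, 103 of 5577 tested genes were higher and 53 lower. DESeq2 called 400 higher and 138 lower, the fit with no replicate block 324 higher and 96 lower, and DESeq2's size factors in edgeR gave 567 and 336. The 10 genes of the gate were never tested.

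Replication genes were higher nearly throughout. Of 39 tested genes of the replication list, 37 rose and 0 fell, with a median difference of 2.46, and Pold1 and Mcm10 did not pass. This list and the mitosis list follow the genes that split the cells, so their counts describe the gate and are no independent evidence. The list summed to 391.1, 1572 and 2415 CPM in cycling chondrocytes against 414.7, 511.9 and 458.7 CPM in non-cycling ones, so metaphyseal replicate 1 had no higher sum. In metaphyseal replicate 2 the 4 members held 3, 2, 36 and 3 replication UMIs after thinning, so 1 cell carried most of that sum. Pcna, the sliding clamp of the replication fork and the most abundant member, stood at 35.6, 152.1 and 210.1 CPM against 33.8, 65.2 and 51.2 CPM. Its groups overlapped, and its difference was 1.47 (SE 0.31, edgeR adjusted p = 0.00175). The largest difference was that of Dscc1, a subunit of a clamp loader, at 4.89 (SE 0.85, edgeR adjusted p = 0.000256). Dscc1 had 29 UMIs in the Pdgfra-GFP members and 0 in both metaphyseal sums. Without the Pdgfra-GFP library none of 38 tested replication genes passed, and 24 of 39 did with no replicate block.

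Nucleotide synthesis genes rose in part. Of 19 tested genes 7 rose, among them Tk1, Rrm2, Tyms, Rrm1, Dctpp1 and Dut, which act on deoxyribonucleotides or thymidylate. Paics, an enzyme of purine synthesis and the most abundant member, did not pass and stood at 225.2, 240.9 and 203.9 CPM against 178.3, 194.0 and 142.1 CPM. Rrm2, the regulated subunit of ribonucleotide reductase, stood at 23.7, 76.1 and 252.1 CPM against 3.75, 4.77 and 5.19 CPM. Every cycling sum lay above every non-cycling sum, and the difference was 5.23 (SE 0.38, edgeR adjusted p = 6.95e-11). Tk1, the salvage thymidine kinase, had the largest difference at 6.37 (SE 0.41, edgeR adjusted p = 9.27e-12), with 0, 3 and 367 UMIs in the cycling sums. Without the Pdgfra-GFP library 1 of 18 rose.

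Mitosis genes were the most raised group. Of 50 tested genes 49 rose and 0 fell, with a median difference of 5.93, and the list summed to 6506, 3068 and 9341 CPM against 621.1, 750.4 and 515.3 CPM. Pttg1, encoding securin, was the exception with a difference of -1.06 that did not pass. After thinning, with cells rich in blood-list UMIs removed and with osteoblast-rich cells removed, 1 gene of the list fell. Ube2s, a ubiquitin-conjugating enzyme of the anaphase-promoting complex, was the most abundant member at 1624, 849.5 and 1122 CPM against 268.3, 308.4 and 209.7 CPM. Hmmr, a spindle protein, had the largest difference at 8.93 (SE 0.52, edgeR adjusted p = 2.18e-12), with 8, 2 and 163 UMIs in the cycling sums and 0 in both metaphyseal non-cycling sums. Ccna2, encoding cyclin A2, stood at 59.3, 76.1 and 194.5 CPM against 0, 0 and 0.593 CPM, with a difference of 8.21 (SE 0.39, edgeR adjusted p = 4.75e-14). Without the Pdgfra-GFP library 23 of the 50 passed.

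Regulators of the cycle moved both ways. Of 34 tested genes 13 rose and 6 fell, with a median of 0.33, and without the Pdgfra-GFP library 0 of 33 rose and 4 fell, and with DESeq2 8 of 34 rose and 5 fell. Those that rose included the E2F genes E2f1, E2f2, E2f7 and E2f8, the cyclin E genes Ccne1 and Ccne2, Foxm1, Mybl2 and the inhibitors Cdkn2a, Cdkn2c and Cdkn2d. Cdkn2c, encoding the inhibitor p18 of Cdk4 and Cdk6, stood at 47.4, 25.4 and 305.8 CPM against 35.7, 27.0 and 19.9 CPM. Only the Pdgfra-GFP values lay far apart, the difference was 2.89 (SE 0.45, edgeR adjusted p = 4.56e-05), and without that library it was -0.06. Among the genes of G1 entry, Ccnd1 stood at 0, 126.8 and 83.3 CPM against 86.3, 111.3 and 62.1 CPM, with a difference of -0.12 (SE 0.32), and Cdk4 had a difference of 0.26 (SE 0.23), and neither passed.

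The regulators that fell are known for holding cells out of the cycle, save for cyclin D2. They were Gas1, Cdkn1a, Ccnd2, Gadd45a, Btg1 and Btg2. Cdkn1a, encoding the inhibitor p21, stood at 260.7, 152.1 and 256.0 CPM in cycling and at 630.5, 911.0 and 391.2 CPM in non-cycling chondrocytes. Its groups did not overlap, and it fell by 1.5 (SE 0.28, edgeR adjusted p = 0.000498). The call was lost when cells with at least 3 UMIs of Col10a1 or Prg4 were removed (difference of -0.30, with only the Pdgfra-GFP library left). Ccnd2 stood at 11.9, 12.7 and 91.1 CPM against 18.8, 47.7 and 219.2 CPM and fell by 1.43 (SE 0.27, edgeR adjusted p = 0.000594). It was lower within each library, but the call was lost without the Pdgfra-GFP library. Cdkn1c, encoding p57, stood at 509.6, 773.4 and 453.7 CPM against 910.1, 634.4 and 542.0 CPM and did not pass.

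Histone and chromatin genes rose in part, 15 of 30 tested with a median of 1.07 and 0 that fell, and without the Pdgfra-GFP library 3 of 30 rose. H2afz, a histone variant, stood at 2678, 2079 and 3162 CPM against 328.4, 526.3 and 262.3 CPM, with a difference of 2.63 (SE 0.24, edgeR adjusted p = 5.49e-09). Hmgb2, a chromatin protein, stood at 1576, 798.7 and 1638 CPM against 116.3, 136.7 and 47.4 CPM, with a difference of 3.67 (SE 0.34, edgeR adjusted p = 6.12e-09). All cycling sums lay above all non-cycling sums for both genes. H3f3b, a replication-independent histone and the most abundant member, had a difference of 0.02 (SE 0.20) and did not pass. Replication-dependent histone messages lack a poly(A) tail and their copies share sequence, so their counts are uncertain.

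**Figure D3:**
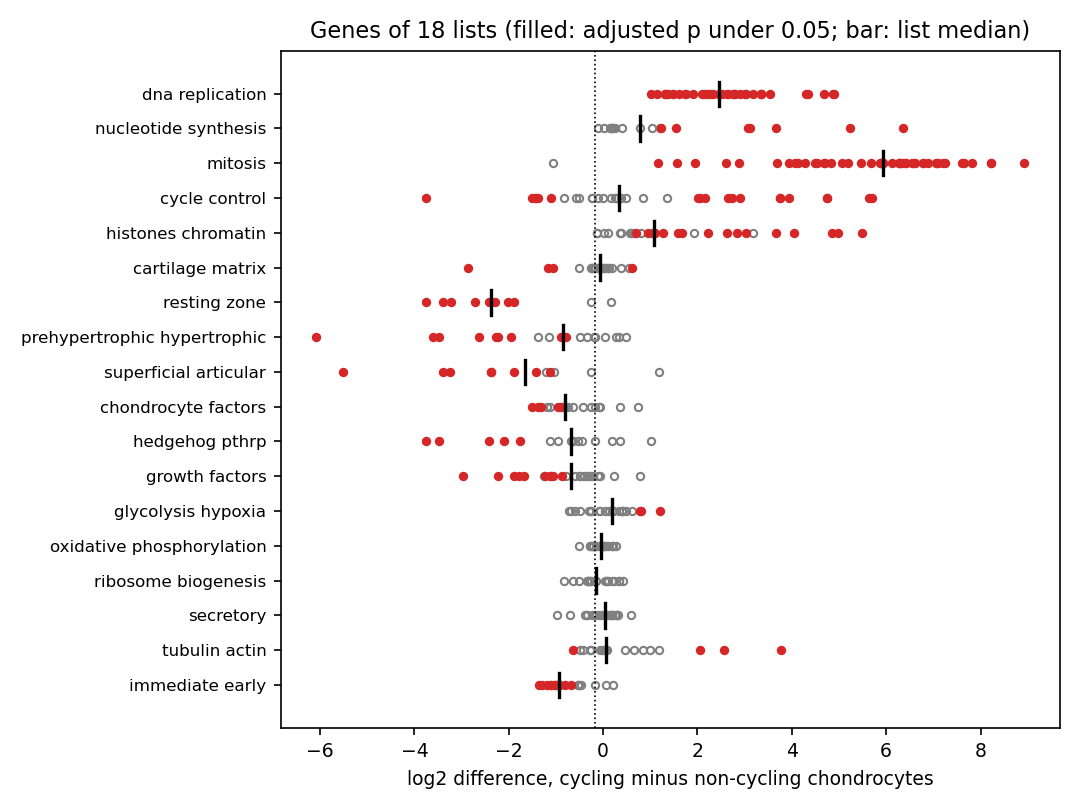
Log2 differences between cycling and non-cycling chondrocytes (horizontal axis) for the tested genes of 18 lists. Filled red points passed an adjusted p under 0.05, open grey points did not, black bars are list medians and the dotted line is the median of all genes (-0.18). The mitosis and replication lists lie to the right (medians 5.93 and 2.46), the resting zone list to the left (-2.38), and the cartilage matrix list around 0 (-0.08).

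Most genes of the cartilage matrix did not pass the test between the states. Of 27 tested matrix genes 1 rose and 3 fell, shares of 3.70% and 11.1% beside 4.64% and 3.78% of all genes, and the median difference was -0.08. The list summed to 90080, 127100 and 102400 CPM in cycling and to 83710, 90950 and 105400 CPM in non-cycling chondrocytes. Col2a1, encoding type II collagen (chromosome 15, 97975602 to 98004695), stood at 35280, 64670 and 50720 CPM against 38000, 43090 and 51760 CPM, with a difference of -0.11 (SE 0.29) and overlapping groups. Comp, the cartilage oligomeric matrix protein, had a difference of 0.09 (SE 0.19), Hapln1, the link protein, of -0.23 (SE 0.20), and Col9a2 of -0.16 (SE 0.20). None of these passed.

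The 4 matrix genes that passed were Epyc, Matn1, Vit and Cytl1, while DESeq2 and the fit with no replicate block called none of the 27. Epyc, a small leucine-rich proteoglycan of the growth plate, stood at 983.7, 722.7 and 399.2 CPM against 442.8, 545.3 and 205.9 CPM and rose by 0.61 (SE 0.18, edgeR adjusted p = 0.0390). It was higher in each library, though 10 of 22 alternative settings lost the call. Matn1, encoding matrilin 1, stood at 462.2, 190.2 and 41.2 CPM against 619.2, 564.4 and 80.6 CPM and fell by 1.17 (SE 0.22, edgeR adjusted p = 0.000523). Cytl1, a secreted cartilage cytokine-like protein, stood at 0, 0 and 503.5 CPM against 116.3, 33.4 and 2947 CPM and fell by 2.86 (SE 0.32, edgeR adjusted p = 4.83e-07). With cells holding at least 3 UMIs of Col10a1 or Prg4 removed on both sides, which left 1 chondrocyte library, these calls were lost and Matn1 had a difference of 0.52.

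The chondrocyte transcription factors fell or did not pass. Of 19 tested 5 fell, 14 did not pass and 0 rose, beside 3.78% of all genes lower, with a median of -0.81. Without the Pdgfra-GFP library 3 of 17 fell, and of 19 tested 3 fell with DESeq2 and 1 with no replicate block. Sox9, the master regulator of cartilage, stood at 865.2, 672.0 and 365.8 CPM against 504.8, 637.5 and 424.9 CPM, with a difference of -0.08 (SE 0.19). Sox5 and Sox6, its partners, had differences of -0.26 (SE 0.26) and -0.74 (SE 0.34), and Runx2, which drives hypertrophy, of -0.20 (SE 0.27). Zbtb20, a repressor required for hypertrophic maturation, stood at 189.6, 291.6 and 339.3 CPM against 716.8, 647.1 and 569.6 CPM. Its groups did not overlap, and it fell by 1.39 (SE 0.23, edgeR adjusted p = 8.18e-05). Trps1 fell by 0.90 (SE 0.22, edgeR adjusted p = 0.00860), and Foxp1, Cebpb and Atf3 were the others that fell.

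Genes of the resting zone fell together. Of 11 tested 9 fell and 0 rose, beside 3.78% of all genes lower, and the median difference was -2.38. Again 9 of 11 fell without metaphyseal replicate 1, without replicate 2 and with comparison cells of matched depth, but only 3 of 10 tested fell without the Pdgfra-GFP library, 6 of 11 with DESeq2 and 3 of 11 with no replicate block. Gas1, a hedgehog co-receptor named for growth arrest (chromosome 13, 60174405 to 60177365), stood at 23.7, 0 and 18.7 CPM against 71.3, 58.8 and 246.3 CPM. It fell by 3.75 (SE 0.39, edgeR adjusted p = 6.93e-08). Sfrp5, a Wnt antagonist (chromosome 19, 42197971 to 42202252), stood at 23.7, 25.4 and 50.6 CPM against 474.7, 97.0 and 248.3 CPM and fell by 2.72 (SE 0.29, edgeR adjusted p = 3.00e-07). For both genes each cycling sum lay below each non-cycling sum. Pthlh, encoding parathyroid hormone related protein, had 0, 0 and 19 UMIs in cycling cells, and stood at 14.8 CPM against 67.1 CPM in the Pdgfra-GFP library. Its overall difference was -2.41 (SE 0.43, edgeR adjusted p = 0.000277).

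Clu, Apoe, Wif1, Efemp1, Spon1 and Grem1 also fell. Apoe, encoding apolipoprotein E, stood at 23.7, 253.6 and 1020 CPM against 1627, 616.9 and 2384 CPM and fell by 2.29 (SE 0.43, edgeR adjusted p = 0.000429). Ucma, the most abundant gene of the list and a matrix protein of the upper growth plate, did not pass. It stood at 1102, 2231 and 3599 CPM against 1741, 1649 and 3267 CPM, with a difference of -0.26 (SE 0.22). Foxa2 did not pass either.

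In single cells thinned to 5000 UMIs, Sfrp5 was seen in 14 of 98 cycling (14.3%, exact interval 8.04 to 22.8%) and 404 of 1264 non-cycling chondrocytes (32.0%) of the Pdgfra-GFP library, and in 22 of 101 (21.8%) and 563 of 1523 (37.0%) before thinning. Endothelial cells of that library, which should lack it, had a UMI in 1 of 286 (0.350%). The shares describe the cells of 1 library and are no test of the states. Before thinning, the metaphyseal shares for Sfrp5 were 1 of 4 cycling against 10 of 36 non-cycling cells in replicate 1 and 1 of 4 against 8 of 32 in replicate 2, too few cells to show a difference. For Gas1 they were 1 of 4 against 4 of 36 and 0 of 4 against 5 of 32. In the Pdgfra-GFP library Gas1 was seen after thinning in 6 of 98 (6.12%) and 266 of 1264 (21.0%), and in 17 of 101 (16.8%) and 440 of 1523 (28.9%) before. The endothelial share for Gas1 was 10 of 286 (3.5%) unthinned and 6 of 141 (4.26%) thinned, so the thinned cycling share was near that background. The median depths of the cycling, non-cycling and endothelial cells of that library were 12590, 8561 and, for non-cycling endothelial cells, 5009 UMIs.

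Genes of the articular surface were also lower. Of 12 tested 8 fell and 0 rose, beside 3.78% of all genes lower, with a median of -1.66. Without the Pdgfra-GFP library 3 of 10 fell, with DESeq2 4 of 12 and with no replicate block 1 of 12. Prg4 (chromosome 1, 150449412 to 150466165) stood at 0, 0 and 132.3 CPM in cycling and at 41.3, 46.1 and 1206 CPM in non-cycling chondrocytes, and fell by 3.39 (SE 0.36, edgeR adjusted p = 9.65e-08). Of the 170 Prg4 UMIs in Pdgfra-GFP members, 136 came from 1 cell. Cells with at least 3 Prg4 UMIs were 2 of 101 cycling (1.98%, exact interval 0.241 to 6.97%) and 272 of 1523 non-cycling chondrocytes (17.9%, 16.0 to 19.9%), and 0 of 286 endothelial cells. These intervals cover the cells of 1 library and are no test of the states. Gdf5, a joint growth factor of the BMP family, stood at 0, 0 and 1.56 CPM against 99.5, 103.3 and 50.6 CPM. The groups did not overlap, and Gdf5 fell by 5.52 (SE 0.64, edgeR adjusted p = 5.15e-07). In the metaphyseal libraries its level was at least 2.80-fold and 2.72-fold lower against the limit a count of 0 allows.

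Genes of prehypertrophy and hypertrophy fell in part. Of 20 tested 9 fell and 0 rose, beside 3.78% of all genes lower, with a median of -0.86. Without the Pdgfra-GFP library 6 of 19 fell. Of 20 tested 5 fell with comparison cells of matched depth, 5 with DESeq2 and 4 with no replicate block. The list summed to 7466, 3220 and 7836 CPM against 42880, 44940 and 13530 CPM. Col10a1, encoding type X collagen (chromosome 10, 34389981 to 34397085), showed the widest gap at 94.8, 76.1 and 84.8 CPM against 15900, 14710 and 1407 CPM. Its level was 167.7-fold, 193.4-fold and 16.6-fold lower within the 3 libraries, and it fell by 6.08 overall on the log2 scale (SE 0.44, edgeR adjusted p = 8.66e-11). Of the Col10a1 UMIs in cycling cells 8 of 8 in metaphyseal replicate 1 came from the member led by osteoblast genes, and 56 and 46 of 109 in the Pdgfra-GFP library came from 1 cell each. Col10a1 stood at 13.0, 14.1 and 21.3 CPM in cycling endothelial cells, which should lack it.

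Cells with at least 3 Col10a1 UMIs were 1 of 4, 1 of 4 and 2 of 101 cycling chondrocytes, and 21 of 36 (58.3%), 13 of 32 (40.6%) and 94 of 1523 (6.17%) non-cycling ones. In endothelial cells they were 1 of 1138, 1 of 890 and 0 of 286. The non-cycling chondrocytes of the metaphyseal libraries were thus rich in Col10a1 cells, and those of the Pdgfra-GFP library in Prg4 cells. With both kinds of cell removed on either side, only the Pdgfra-GFP library kept enough cycling cells. Mmp13 then had a difference of 1.30. No list is counted in that setting, since 1 chondrocyte library has no spread of its own. The articular and hypertrophic lists also hold Prg4 and Col10a1.

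Ihh, encoding Indian hedgehog (chromosome 1, 74945315 to 74951672), stood at 0, 38.0 and 11.7 CPM in cycling and at 153.9, 130.4 and 123.7 CPM in non-cycling chondrocytes. Every cycling sum lay below every non-cycling sum, and Ihh fell by 3.48 (SE 0.37, edgeR adjusted p = 3.43e-07). In the Pdgfra-GFP library cells with an Ihh UMI were 7 of 101 cycling (6.93%, 2.83 to 13.8%) and 134 of 1523 non-cycling chondrocytes (8.80%, 7.42 to 10.3%), beside 2 of 286 endothelial cells (0.699%). After thinning the shares were 5.10% and 8.23%. The intervals cover the cells of 1 library, so they cannot decide whether the states differ. Spp1, encoding osteopontin, stood at 1991, 164.8 and 5535 CPM against 22340, 25040 and 6209 CPM and fell by 3.61 (SE 0.77, edgeR adjusted p = 0.00190), mostly in the metaphyseal libraries. Mef2c, a factor of hypertrophy, fell by 0.90 (SE 0.27, edgeR adjusted p = 0.0388). Mmp13, the collagenase of late hypertrophy, stood at 888.9, 0 and 233.5 CPM against 649.2, 1841 and 247.7 CPM, with a difference of -1.16 (SE 0.53) that did not pass. The fall of Mmp13 passed without metaphyseal replicate 1 (-2.05), with Scrublet calls removed (-2.02), with osteoblast-rich cells removed (-2.23), after thinning (-1.12) and with no filter on low counts (-1.14). With Col10a1 or Prg4 cells removed, which left 1 chondrocyte library, Mmp13 instead stood higher in cycling cells (difference of 1.30). The markers Runx2, Sp7, Alpl, Panx3 and Vegfa did not pass either.

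**Figure D4:**
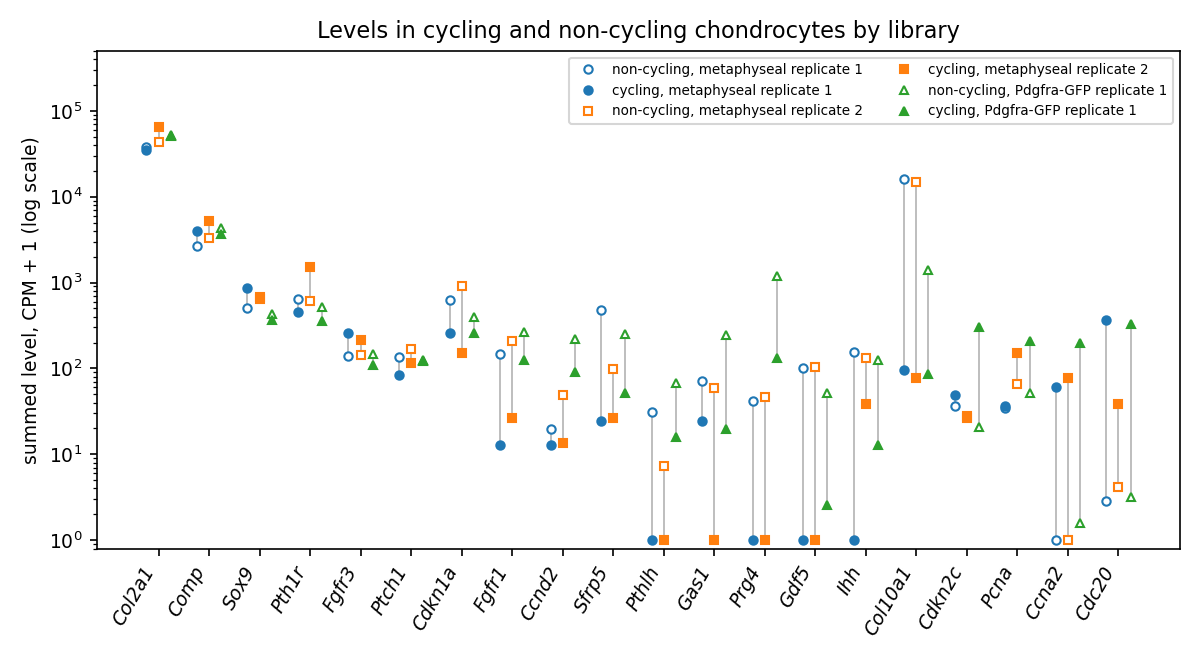
Summed level (CPM + 1, log scale) of 20 genes in cycling (filled) and non-cycling (open) chondrocytes of each library, with a grey line joining the states of 1 library. Points at the bottom are sums without a UMI. Col2a1 and Sox9 overlap between the states, while Col10a1, Ihh and Gdf5 lie lower and Ccna2 and Cdc20 higher in the cycling sums of all 3 libraries.

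In the hedgehog and parathyroid hormone related pathways, ligands and co-receptors were lower and the receptors and target genes did not pass. Of 15 tested genes 5 fell and 0 rose, beside 3.78% of all genes lower. Without the Pdgfra-GFP library 1 of 11 fell, and of 15 tested 3 fell with DESeq2 and 2 with no replicate block. The 5 that fell were the ligands Ihh and Pthlh and the hedgehog co-receptors Gas1, Boc and Cdon. Ihh, Pthlh and Gas1 are also described above among the zone genes, so this count partly repeats them. Pth1r, the receptor for parathyroid hormone related protein, stood at 450.4, 1509 and 354.1 CPM against 641.7, 610.5 and 511.8 CPM, with a difference of -0.16 (SE 0.26). The direction was not shared, since replicate 2 had the higher cycling sum. Ptch1, the hedgehog receptor and a target of the pathway, stood at 83.0, 114.1 and 119.8 CPM against 133.2, 168.5 and 123.4 CPM (difference of -0.44, SE 0.23), and Gli1, a target, had a difference of 1.02 (SE 0.51). Boc fell by 2.10 (SE 0.41, edgeR adjusted p = 0.000671), with 0, 0 and 18 UMIs in the cycling sums, and Cdon by 1.77 (SE 0.51, edgeR adjusted p = 0.0270).

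Growth factor genes gave 9 that fell and 0 that rose of 24 tested, beside 3.78% of all genes lower, with a median of -0.69. In alternative fits 6 fell without metaphyseal replicate 1, 6 at matched depth, 4 without the Pdgfra-GFP library, 5 with DESeq2 and 3 with no replicate block. Bmp2, a bone morphogenetic protein (chromosome 2, 133552159 to 133562885), stood at 0, 12.7 and 10.9 CPM against 101.3, 263.9 and 53.2 CPM. Its groups did not overlap, it fell by 2.98 (SE 0.37, edgeR adjusted p = 1.41e-06), and it passed in all 22 alternative settings. Bmp6 fell by 2.23 (SE 0.46, edgeR adjusted p = 0.00143). The fibroblast growth factor receptors differed among themselves. Fgfr1 stood at 11.9, 25.4 and 124.5 CPM against 148.2, 206.7 and 267.6 CPM and fell by 1.69 (SE 0.27, edgeR adjusted p = 6.58e-05). Fgfr3, which restrains column cells, stood at 260.7, 215.5 and 108.9 CPM against 138.9, 143.1 and 144.4 CPM, with a difference of -0.11 (SE 0.25) that did not pass. The growth hormone receptor Ghr fell by 1.89 (SE 0.41, edgeR adjusted p = 0.00214), and the insulin-like growth factor receptor Igf1r had a difference of -0.21 (SE 0.27).

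Immediate early genes, which many cells switch on within minutes of stress such as tissue digestion, were lower in cycling chondrocytes. Of 21 tested 12 fell and 0 rose, beside 3.78% of all genes lower, with a median of -0.94. Without the Pdgfra-GFP library 10 of 21 passed, with DESeq2 7 and with no replicate block 1. Egr1 stood at 746.6, 735.4 and 160.3 CPM against 1124, 1261 and 296.4 CPM and fell by 1.01 (SE 0.18, edgeR adjusted p = 0.000234). Fos, the most abundant, stood at 2998, 3208 and 958.0 CPM against 3850, 3768 and 1517 CPM and fell by 0.68 (SE 0.18, edgeR adjusted p = 0.0144). Zfp36, an RNA-binding repressor, had the largest difference at -1.36 (SE 0.31, edgeR adjusted p = 0.00348), though in metaphyseal replicate 1 it stood at 770.3 CPM against 675.5 CPM. The metaphyseal libraries stood higher than the Pdgfra-GFP library for each of these genes in both states. The same list had medians of -0.88 in stromal cells and -0.88 in endothelial cells, and no member passed the test of a difference between lineages.

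Genes of the secretory pathway (24 tested), oxidative phosphorylation (20) and ribosome biogenesis (19) gave 0 calls by edgeR in either direction, with medians of 0.04, -0.05 and -0.15. DESeq2 called 1, 0 and 0 of them, and at an unadjusted p under 0.05 in edgeR they held 3, 1 and 0 genes. Serpinh1, the collagen chaperone and most abundant secretory gene, stood at 4456, 3588 and 2893 CPM against 2492, 2123 and 2594 CPM, with a difference of 0.32 (SE 0.20). Glycolysis and hypoxia genes gave 3 of 23 that rose, beside 4.64% of all genes, Slc16a3, Tpi1 and Pgam1, and a median of 0.18. Tpi1, encoding triosephosphate isomerase, stood at 960.0, 1065 and 846.7 CPM against 386.5, 383.2 and 586.5 CPM and rose by 0.81 (SE 0.19, edgeR adjusted p = 0.00423). Its groups did not overlap. Without metaphyseal replicate 1 none of the list rose and 1 fell, without replicate 2, 1 rose and 1 fell, with no replicate block none passed, and after thinning none rose and 1 fell, while 5 rose without the Pdgfra-GFP library, 5 with DESeq2, 6 with DESeq2's size factors in edgeR and 4 at matched depth.

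Cytoskeletal genes gave 3 that rose and 1 that fell of 18 tested, beside 4.64% and 3.78% of all genes, and 6, 7 and 1 rose without metaphyseal replicate 1, metaphyseal replicate 2 and the Pdgfra-GFP library. Stmn1, encoding the microtubule regulator stathmin, stood at 699.2, 443.7 and 1621 CPM against 56.3, 174.9 and 19.3 CPM and rose by 3.77 (SE 0.57, edgeR adjusted p = 2.80e-05). Tuba1b, an alpha tubulin, stood at 284.4, 152.1 and 1921 CPM against 114.5, 90.6 and 155.0 CPM and rose by 2.06 (SE 0.38, edgeR adjusted p = 0.000459). Tubb6 rose by 2.55 (SE 0.39, edgeR adjusted p = 3.13e-05), where the metaphyseal cycling sums, 59.3 and 25.4 CPM, lay near the non-cycling ones. Tubulin genes are near-identical copies, so their counts are uncertain. Actb, the most abundant member, had a difference of 0.02 (SE 0.18).

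Outside the lists, the 10 largest rises with the same direction in every library and a mean of at least 20 CPM were those of Pimreg, Pbk, Dlgap5, Cdca3, Pclaf, Cdkn3, Diaph3, Sgo1, Knstrn and Cenpm, with differences from 8.13 down to 5.55. All 10 passed in every alternative setting that tested them, 21 or 22 each. Most are textbook genes of mitosis or replication, such as Sgo1, which guards centromeric cohesion, and Pclaf, a partner of the sliding clamp. Pbk, encoding a mitotic kinase, stood at 71.1, 25.4 and 258.4 CPM against 0, 0 and 1.33 CPM. Cdkn3, encoding a phosphatase that acts on Cdk2, stood at 225.2, 114.1 and 203.1 CPM against 3.75, 7.95 and 1.93 CPM. Both are further genes that move with the cycle.

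The 10 largest falls by the same rule were those of Ptgs2, Ffar4, Plk2, Gmpr, Tcim, Rbp4, Cxcl14, Aldh1a3, Arap2 and Ramp1. Rbp4, encoding the plasma retinol carrier, stood at 118.5, 0 and 78.6 CPM against 1344, 987.3 and 802.9 CPM. Its groups did not overlap, it fell by 3.91 (SE 0.29, edgeR adjusted p = 8.66e-11), and it passed in all 22 alternatives. Aldh1a3, which makes retinoic acid from retinal, stood at 11.9, 0 and 5.45 CPM against 195.1, 38.2 and 33.6 CPM and fell by 3.20 (SE 0.49, edgeR adjusted p = 3.50e-05). Cxcl14, a chemokine, stood at 23.7, 0 and 58.4 CPM against 379.0, 122.4 and 408.1 CPM and fell by 3.26 (SE 0.40, edgeR adjusted p = 1.23e-06). The falls of Cxcl14, Rbp4, Gmpr and Ramp1 passed in all 22 alternatives, and that of Arap2 in 8 of 19. That of Tcim was -3.99 and did not pass with sums of at least 5 cells (-1.57), with sums of at least 20 cells (-1.62), when gated after thinning (-0.81) or with Col10a1 and Prg4 cells removed. Each of these settings left 1 chondrocyte library.

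Ptgs2, Ffar4 and Plk2 had almost no UMI in cycling cells. Ptgs2, encoding cyclooxygenase 2, had 0 UMIs in all 3 cycling sums against 31.9, 284.6 and 4.45 CPM in non-cycling ones. Its level was at least 7.48-fold lower in metaphyseal replicate 2 and at least 1.90-fold lower in the Pdgfra-GFP library, with the limit of 3 counts set per library, and replicate 1 allowed no bound. Ffar4, a receptor for long-chain fatty acids, had 0 UMIs against 71.3, 65.2 and 14.8 CPM, and was at least 2.01-fold, 1.71-fold and 6.35-fold lower. Plk2, a polo-like kinase linked to cell-cycle arrest, had 0, 0 and 1 UMIs against 80.7, 238.5 and 7.48 CPM (edgeR adjusted p = 3.78e-06). The Plk2 call and the Ptgs2 call were lost when cells with at least 3 UMIs of Col10a1 or Prg4 were removed. That setting left only the Pdgfra-GFP library, where both genes stood lowest in non-cycling chondrocytes, and the cause of the loss was not tested.

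To see whether a cycling difference was shared, the same contrast was made in stromal cells (214 cycling, 7992 not) and endothelial cells (159 and 2155), and the difference between lineages was tested. Against stromal cells, 81 of 10764 genes had a higher (0.753%) and 183 a lower (1.7%) cycling difference in chondrocytes. Against endothelial cells, 26 of 10767 were higher (0.241%) and 18 lower (0.167%). With cells holding blood-cell RNA removed the endothelial comparison gave 17 higher and 15 lower, and without the Pdgfra-GFP library 20 higher and 68 lower. Without metaphyseal replicate 1 or 2 the stromal comparison gave 62 and 85 higher and 97 and 101 lower, and without the Pdgfra-GFP library 31 higher and 272 lower. With DESeq2's size factors in edgeR the stromal split was 100 higher and 76 lower. Of 50 mitosis genes 1 (Anln) was lower against stromal cells, beside 1.7% of all genes, and of 39 replication genes 1 (Pola2) was higher against endothelial cells, beside 0.241%. Their medians were 5.93 and 2.46 in chondrocytes, 6.24 and 2.68 in stromal cells and 5.89 and 2.29 in endothelial cells.

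The falls in the resting zone, articular and hypertrophic lists were tested against the other lineages, and most listed genes did not pass. Against stromal and endothelial cells 2 and 1 resting zone genes were lower, and the list medians there were -0.94 and -1.32. Of the articular list 1 was higher and 1 lower against stromal cells and 0 against endothelial cells (medians -1.81 and -0.58). Of the hypertrophic list 5 and 1 were lower (medians 0.29 and -0.42). Over all genes 1.7% and 0.167% were lower. For a gene nearly absent from the other lineage such a test cannot show whether a fall was shared, so these counts do not measure sharing. Ihh was seen in 0 of 1138, 0 of 890 and 2 of 286 endothelial cells, and Sfrp5 in 0, 0 and 1 of them. For Col10a1 the test has no bearing in either lineage, since both had no level from which to fall. It stood at 8.69, 14.0 and 12.3 CPM in non-cycling stromal cells and at 9.66, 12.95 and 18.1 CPM in non-cycling endothelial cells. Prg4 stood at 3.47, 3.98 and 507.4 CPM in cycling and at 6.38, 5.4 and 110.5 CPM in non-cycling stromal cells, and its difference in chondrocytes was lower by 5.19 (SE 0.49, edgeR adjusted p = 4.29e-07). The interaction for Spp1 against stromal cells was -4.99 (SE 0.97, edgeR adjusted p = 0.00450), and that for Plk2 was -5.22 against stromal and -4.92 against endothelial cells. Plk2 stood at 197.9, 177.7 and 265.9 CPM in cycling endothelial cells, and 228.6, 220.5 and 294.6 CPM in non-cycling ones. Aldh1a3 rose in cycling stromal cells by 1.74 (SE 0.33, edgeR adjusted p = 0.000254), with 52.0, 19.9 and 29.9 CPM against 8.33, 5.58 and 12.6 CPM.

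Genes with a higher cycling difference in chondrocytes included ones that fell in the other lineage. All 6 tested genes of the haematopoietic list were also among them in both comparisons. The stromal and endothelial gates left out cells with blood-cell RNA and the chondrocyte gate did not, so the lineages were not gated alike for these genes. Chrdl1, a BMP antagonist, stood at 59.3, 63.4 and 33.5 CPM against 31.9, 44.5 and 31.0 CPM in chondrocytes, with a difference of 0.09 (SE 0.33). In stromal cells it stood at 34.7, 3.98 and 15.2 CPM against 399.7, 400.1 and 235.6 CPM, a difference of -4.02 (SE 0.28, edgeR adjusted p = 1.60e-11). Prelp, a matrix proteoglycan, stood at 1659, 1268 and 878.6 CPM against 816.2, 1113 and 560.2 CPM in chondrocytes and fell by 3.28 in stromal cells (SE 0.29, edgeR adjusted p = 1.19e-09). Frmd4b rose in chondrocytes by 1.5 (SE 0.32, edgeR adjusted p = 0.00195) and fell in both other lineages, by 1.32 in stromal and 1.06 in endothelial cells.

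**Figure D5:**
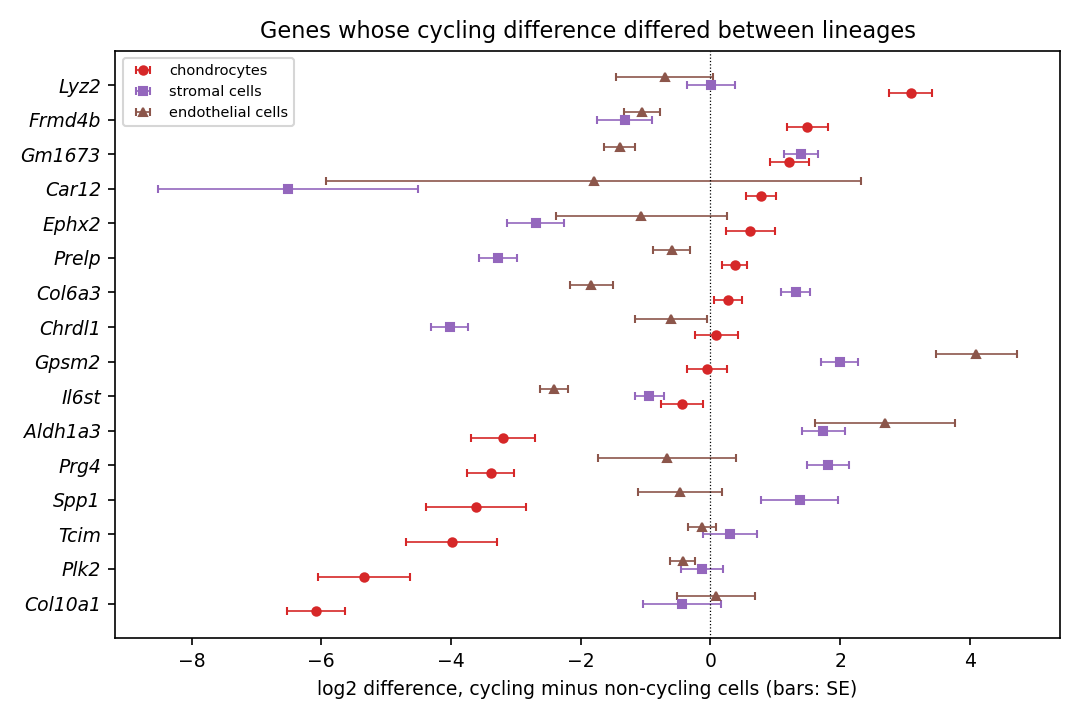
Log2 difference, cycling minus non-cycling (horizontal axis, bars SE), of the 16 genes with the highest or lowest differences between lineages, in chondrocytes, stromal cells and endothelial cells. Ptgs2 is left out since it had no UMI in cycling chondrocytes. Col10a1 lies at -6.08 in chondrocytes and near 0 in the other lineages, and Chrdl1 at 0.09 in chondrocytes and -4.02 in stromal cells.

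Markers of other cell types were measured in the members. A haematopoietic list of 16 genes, led by S100a9 in the Pdgfra-GFP library, summed to 71.1, 38.0 and 3661 CPM in cycling and to 37.5, 58.8 and 275.0 CPM in non-cycling chondrocytes. All 6 tested members were called higher, and with cells holding at least 2 UMIs of the blood-cell genes Ptprc, Cd53, Laptm5 and Coro1a removed, no call of the 6 tested was left. The same held for the 3 tested without the Pdgfra-GFP library. An erythroid list of 10 genes, led by Hbb-bs, summed to 94.8, 63.4 and 6103 CPM against 11330, 108.1 and 1850 CPM, with 1 of 7 higher, 5 of 9 without metaphyseal replicate 1, and 4 of 6 lower without the Pdgfra-GFP library. Of the erythroid UMIs, 5994 of 6038 in non-cycling chondrocytes of metaphyseal replicate 1 and 7263 of 7842 in Pdgfra-GFP members came from 1 cell each, as did 4516 of the 4704 haematopoietic UMIs of those members. With all cells of at least 20 UMIs of either list removed 923 genes in all passed.

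The endothelial list of 10 genes summed to 0, 50.7 and 40.5 CPM in cycling chondrocytes, with 10, 6 and 1 of its genes at 0, and 1 of 10 fell (Ramp2). The stromal list, led by Cxcl12, summed to 154.1, 76.1 and 450.6 CPM against 71.3, 65.2 and 768.8 CPM, and no gene of 10 was called. Of these 10 genes 2 fell without metaphyseal replicate 1, 2 without replicate 2 and 0 without the Pdgfra-GFP library. The osteoblast list, led by Col1a2 in the Pdgfra-GFP library and Ibsp in metaphyseal replicate 1, summed to 5226, 684.6 and 6661 CPM against 7138, 1545 and 17200 CPM, and 2 of 10 fell, Bglap (osteocalcin) and Ibsp. Without metaphyseal replicate 1 or 2, 8 and 9 of 10 fell, and without the Pdgfra-GFP library none fell. With DESeq2, with no replicate block and with comparison cells of matched depth 0 fell, and 1 fell with osteoblast-rich cells removed. The part of osteoblast RNA in the falls of Spp1, Ibsp and Bglap was not tested. With chondrocytes richer in osteoblast than cartilage UMIs removed, 930 genes passed, and 853 of the 907 passed again in the same direction. The fibroblast list gave 1 of 6 lower (Dcn), the mural list, led by Cspg4, no call of 8, and the septoclast list, led by Fabp5, no call of 7. Over all genes 4.64% were higher and 3.78% lower. Beside these shares a single call in a marker list this small, as also in the erythroid list, is no result about the list. At an unadjusted p under 0.05 in edgeR the stromal, mural and septoclast lists held 3, 0 and 3 genes, and DESeq2 called 0 of each.

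The reporter and its gene were low in these cells. Pdgfra stood at 23.7, 0 and 6.23 CPM in cycling and at 3.75, 3.18 and 8.15 CPM in non-cycling chondrocytes, with 2, 0 and 8 UMIs behind the cycling values. The H2B-GFP transcript stood at 14.8 and 16.1 CPM in cycling and non-cycling chondrocytes of the Pdgfra-GFP library and was at 0 in the metaphyseal ones. Neither transcript was called.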

How the data were processed

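Single cells were measured by 10x droplet RNA sequencing in 2 metaphyseal libraries and 1 Pdgfra-GFP library. The deposited files hold raw UMI counts over the whole barcode whitelist, which the authors made with bcl2fastq, fastp 0.20 and STARsolo (STAR 2.7.3a) on mm10 with Gencode M23 and H2B-GFP added. Cells were kept at 1500 genes or more (metaphyseal) or 1000 or more (Pdgfra-GFP), at most 15% mitochondrial and 30% ribosomal protein UMIs. The members and gene lists were chosen with earlier results of these data known.

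UMIs were summed per library, lineage (chondrocyte, stromal, endothelial) and cycling state, and tested with edgeR 4.0.16 (R 4.3.3, TMM, filterByExpr, quasi-likelihood test, Benjamini-Hochberg over all genes, threshold 0.05) with library by lineage as a block. A minimum of 5 cells per sum was planned, which would leave 1 library of cycling chondrocytes. A minimum of 4 was used, chosen after the cell numbers were seen. Both states of a block come from 1 suspension, and their deviations correlated (r of 0.216, 0.214 and 0.545 over 5108 genes in chondrocytes). DESeq2 1.42.0 was an alternative.

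Stromal cells had at least 4 UMIs of Pdgfrb, Cxcl12 and Postn together and at most 1 of Pecam1 and Cdh5. Endothelial cells had at least 3 of Pecam1 and Cdh5. Both held at most 1 UMI of Acan and at most 1 of Matn3 and Col9a1 together. They also held at most 1 of the blood-cell genes Ptprc, Cd53, Laptm5 and Coro1a together, a limit the chondrocyte gate lacked. Scrublet (scanpy 1.11.5) called 25, 12 and 163 cells, which were kept. Named genes were those of the rule, the most abundant and extreme called members of each list with members of textbook role, the 10 highest and lowest called differences outside the lists, and the 5 highest and lowest differences between lineages, the last 2 kinds with the same direction in every library and a mean of at least 20 CPM. Gene positions are those of Gencode M21 on GRCm38.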

Additional observations from a re-analysis of the deposited data

Results flagged for a closer look

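The cycling difference of the following genes differed between chondrocytes and another lineage by a test of that difference itself, the interaction term of edgeR's quasi-likelihood fit. Values are log2, the chondrocyte difference minus that of the other lineage, for the 5 highest and 5 lowest of each comparison.

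Against stromal cells the higher values were 7.29 for Car12 (SE 1.83, edgeR adjusted p = 0.0350), 4.11 for Chrdl1, 3.65 for Prelp, 3.31 for Ephx2, a lipid epoxide hydrolase (SE 0.60, edgeR adjusted p = 0.00249), and 3.08 for Lyz2, a lysozyme of blood cells. Car12, a carbonic anhydrase, differed by 0.78 in chondrocytes and by -6.51 in stromal cells. The lower values were -5.64 for Col10a1, which was near background in stromal cells, so that the value restates its fall in chondrocytes, -5.22 for Plk2, -5.19 for Prg4 and -4.99 for Spp1. That for Ptgs2 was -11.83, a fitted value that depends on the prior count since cycling chondrocytes held 0 UMIs of it.

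Against endothelial cells the higher values were 3.79 for Lyz2, 2.62 for Gm1673, 2.55 for Frmd4b, 2.11 for Col6a3, a chain of type VI collagen, and 1.97 for Il6st, the receptor subunit gp130. Il6st differed by -0.44 in chondrocytes and by -2.41 in endothelial cells. The lower values were -6.17 for Col10a1, likewise near background in endothelial cells, -5.89 for Aldh1a3 (edgeR adjusted p = 0.0487), -4.92 for Plk2, -4.15 for Gpsm2, a spindle orientation protein, and -3.86 for Tcim. Gpsm2 differed by -0.05 in chondrocytes and by 4.10 in endothelial cells. With cells holding blood-cell RNA removed the Lyz2 values were 0.21 against stromal and 0.96 against endothelial cells, and neither passed. The Aldh1a3 value did not pass in 8 of 19 alternatives, with edgeR or DESeq2 adjusted p from 0.00121 to 1.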

How the results depend on the processing

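Of the 95 named genes that passed, 1790 of 2049 values under alternative settings kept direction and call, 243 lost the call and 16 reversed. Over all 138 named genes, 35 of 2991 values gained a call and 20 reversed. Of 20 differences between lineages under 375 settings, 308 were the same, 64 lost the call and 3 reversed. The cause of each change was not tested, unless the setting itself shows it (fewer samples or genes).

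The 907 genes that differed between states became 1464 with sums of at least 20 cells, 538 with DESeq2, 420 with no replicate block and 156 with chondrocyte sums only, and leaving out 1 library gave 243 to 955. The planned sums of at least 5 cells, which keep 1 chondrocyte library whose spread is taken from the other lineages, gave 1149. Without the pairing block 417 of the 420 were shared with the 907. The 264 differences from stromal cells became 125 with DESeq2, 4 with no replicate block, 95 at 2000 genes per cell, 81 after thinning, 134 when gated after thinning, 61 with comparison cells of matched depth and 159 to 303 without 1 library. DESeq2 size factors in edgeR gave 176, and no filter on low counts 394 of 27682. The 44 differences from endothelial cells became 104 with sums of at least 5 cells, 25 with DESeq2, 108 with no filter on low counts, 4 with no replicate block, 24 at 2000 genes, 81 when gated after thinning and 46 to 88 without 1 library. The cycling share of metaphyseal replicate 2 became 3.03% when gated after thinning, and that of Pdgfra-GFP 7.94% at 2000 genes.

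With Col10a1 and Prg4 cells removed, Tcim reversed to 2.22, Matn1 to 0.52 and Mmp13 to 1.30. That setting left 1 chondrocyte library, so only the sizes are given here. At a gate of 10 UMIs Lyz2 reversed to -0.24, S100a9 to -1.42 and Camp to -0.77. With blood-cell RNA removed S100a9 and Camp reversed to -0.44 and -0.0536, and with 20 UMIs of the blood lists removed to -0.12 and -0.18. Gated after thinning, Lyz2 reversed to -1.20, S100a9 to -2.85, Camp to -3.09, Hbb-bs to 2.05, and Lyz2 to -1.41 against stromal and -0.23 against endothelial cells. Hbb-bs reversed to 1.43 and 1.38 with sums of at least 5 and 20 cells. Leaving out 1 library gave -0.25 to 1.40 for Gm1673, -0.44 to 3.32 for S100a9, -9.03 to 2.38 for Car2 and -0.0613 to 3.20 for Cdkn2c, each reversed without the Pdgfra-GFP library. It gave -7.40 to 1.19 for Aldh1a3 against endothelial cells, reversed without metaphyseal replicate 2. Depth limits the metaphyseal cycling sums, where a count of 0 allows 35.6 and 38.0 CPM.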

Other observations

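Fabp7, a fatty acid binding protein, stood at 604.4, 12.7 and 14.8 CPM in cycling against 9.38, 7.95 and 7.78 CPM in non-cycling chondrocytes of metaphyseal replicate 1, metaphyseal replicate 2 and the Pdgfra-GFP library. The difference was 2.47 on the log2 scale (SE 0.64, edgeR adjusted p = 0.0120), and metaphyseal replicate 1, whose 4 members held 51 UMIs of it, stood apart from the other libraries.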
